A study of Mus musculus with 8 samples.

Results

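The genes described here encode the enzymes of the tricarboxylic acid (TCA) cycle, the pyruvate dehydrogenase complex with its kinases and phosphatase, and the malate-aspartate shuttle. The 30 genes were taken from a list, each probe was matched to its gene through the accession given in the scanner files, and all 30 had at least 1 probe (36 probes in all) among the 20972 named genes of the array. The tissue was white gastrocnemius, from the calf, where fast-twitch fibres prevail, and it came from 4 mice homozygous for a mutant Pus1 allele and 4 wild type mice. The labels do not describe the mutation further. All 8 mice were aged 14 to 16 weeks, on a C57BL/6J background after 5 generations of backcrossing. Pus1 encodes pseudouridine synthase 1, which converts uridine to pseudouridine in tRNA. Each of 4 two-colour arrays on 1 slide paired 1 mutant with 1 wild type animal, matched for sex and number, pairs 1 and 2 being male and pairs 3 and 4 female, with the mutant in Cy5 in pairs 1 and 3 and in Cy3 in pairs 2 and 4. Whole tissue was used, so a change in the share of a fibre type and a change of RNA within a fibre cannot be told apart.

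Pyruvate from glycolysis enters mitochondria and is turned into acetyl-CoA by pyruvate dehydrogenase, which kinases of the Pdk family switch off and phosphatases switch back on. The TCA cycle oxidises acetyl-CoA and passes electrons to the respiratory chain. The malate-aspartate shuttle carries the reducing power of cytosolic NADH into mitochondria with a cytosolic and a mitochondrial malate dehydrogenase, a cytosolic and a mitochondrial aspartate aminotransferase, and 2 kinds of inner-membrane carrier. Slow and oxidative fibres, a minority in white gastrocnemius, are richer in mitochondria than the fast glycolytic fibres that make up most of it.

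Spots well above background made up 38% to 46.5% per animal, and a probe was tested if it was so in at least 4 of the 8 animals (23098 probes). Against the labelled tissue, 12 of 12 listed fast fibre markers were well above background in all 8 animals. So were 13 of 13 listed slow fibre markers, so these counts show muscle but do not tell the fibre types apart. The Pus1 probe, which checks the genotype labels, gave normalized log2 intensities of 6.75, 6.92, 6.49 and 6.84 in mutants 1 to 4, against 8.06, 8.37, 8.15 and 8.28 in wild type animals 1 to 4, and the mutant signals were not well above background. Between pairs, log2 ratios correlated across probes at −0.304 to 0.172, so the 4 pairs shared little of their differences. For genotype, 0 of 23098 probes (0%) reached an adjusted p of 0.05 in limma, while 774 probes (3.35%) had an unadjusted p under 0.05. The count at an adjusted p of 0.05 in limma, 0 with all pairs, was 245 without pair 3 and 5 without pair 1.

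Of the 30 genes, 28 were tested, and all 28 were well above background in each of the 8 animals. The other two, Pdk3, a pyruvate dehydrogenase kinase, and Slc25a13, an aspartate-glutamate carrier known best from liver, were not well above background in any of the 8 animals and have no fold. None of the 28 passed the threshold over all probes (0 genes, limma, each with an adjusted p of 1). The fitted mean was below wild type for 24 of the 28, against 49.6% of all tested probes. The median log2 ratio of mutant over wild type was −0.15 for the 28 genes and 0 for all tested probes, and single genes ranged from −0.54 to 0.93. At an unadjusted p under 0.05 in limma, 5 of the 28 were lower in mutants, where 1.86% of all probes were, and 1 was higher, where 1.49% were. The 5 were Idh2, Mdh2, Mdh1, Got1 and Got2, and the 1 was Pdk4. The count of 5 was 0 without pair 4 and 3 without pair 2. Without pair 4 the ratios were −0.36 for Idh2, −0.28 for Mdh1, −0.21 for Mdh2, −0.23 for Got1 and −0.29 for Got2, and the count over all probes at an unadjusted p under 0.05 in limma was 235. The median was −0.11 without pair 3 and −0.12 without pair 4. The members' median was −0.08, −0.01, −0.22 and −0.23 in pairs 1 to 4. In the female pairs 3 and 4, 22 and 24 of the 28 lay below wild type (46.8% and 51.8% of all probes), against 15 and 14 in the male pairs 1 and 2 (51.2% and 53.1%).

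**Figure D1:**
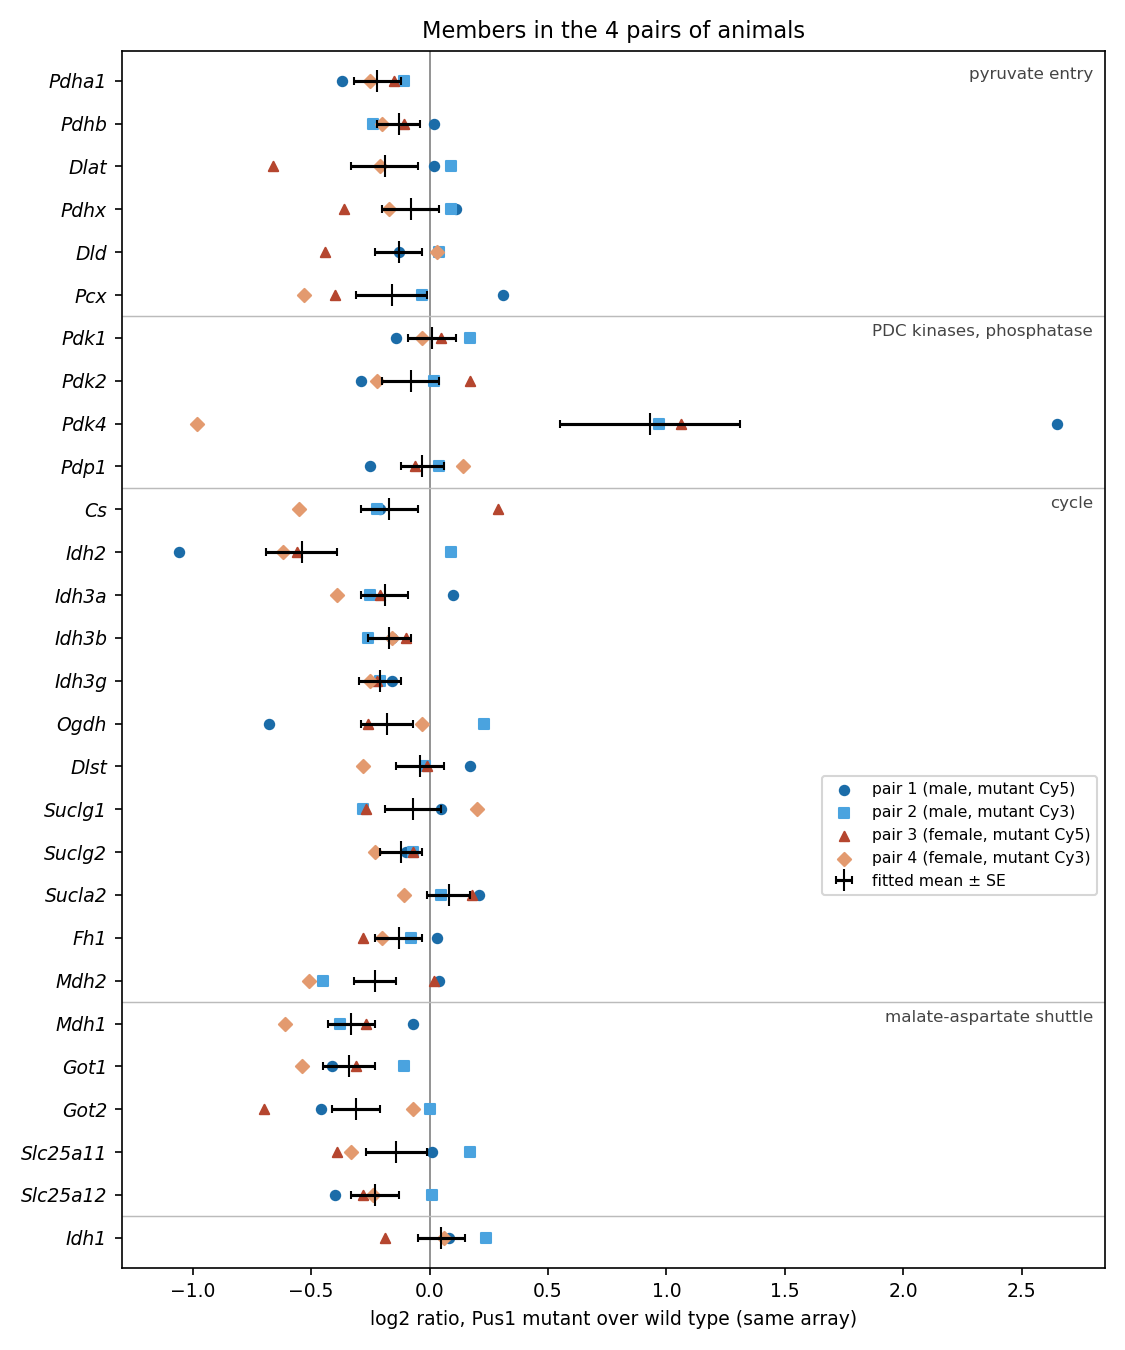
Log2 ratio of Pus1 mutant over wild type for the 28 tested genes, grouped by role (horizontal axis in log2 units). Coloured symbols are the 4 pairs of animals, and black ticks with bars are the fitted mean ± SE. Most fitted means lie left of 0, the lowest being Idh2 at −0.54, and Pdk4 alone lies far to the right, at 0.93.

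The malate-aspartate shuttle had the lowest median of the roles. Its 5 tested dedicated genes and Mdh2 all lay below wild type (6 of 6, median −0.27), against 49.6% of all tested probes. Mdh2 is the mitochondrial malate dehydrogenase that the shuttle shares with the TCA cycle. Of the 6 genes, 4 were lower at an unadjusted p under 0.05 in limma, against 1.86% of all probes, and none without pair 4. In single pairs, 4, 3, 5 and 6 of the 6 lay below wild type in pairs 1 to 4. These 4 are the malate dehydrogenases and aspartate aminotransferases of the cytosol and of the mitochondrion.

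Got1, the cytosolic aspartate aminotransferase, gave log2 intensities of 14.19, 14.23, 14.32 and 14.24 in mutants 1 to 4, against 14.60, 14.34, 14.63 and 14.78 in wild type animals 1 to 4. The mutants lay in a narrow band and the groups did not overlap, though mutant 3 was only just below wild type animal 2. Groups did not overlap with mutants lower for 0.714% of all tested probes, and in either direction for 1.27%. Mutants over wild type gave a fitted log2 ratio of −0.34 (SE 0.11, n = 4 pairs, 0.789-fold), lower in 4 of 4 pairs, with a limma p of 0.0211 unadjusted and 1 adjusted.

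Mdh1, the cytosolic malate dehydrogenase, gave 14.19, 14.00, 13.99 and 14.11 in mutants 1 to 4, against 14.25, 14.38, 14.27 and 14.72 in wild type animals 1 to 4. The groups did not overlap (with mutants lower, as for 0.714% of all tested probes), but the highest mutant lay close to the lowest wild type animal. The fit gave a log2 ratio of −0.33 (SE 0.10, n = 4 pairs, 0.794-fold), lower in 4 of 4 pairs, with a limma p of 0.0157 unadjusted and 1 adjusted.

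Got2, the mitochondrial aspartate aminotransferase, gave 13.07, 13.32, 13.01 and 13.33 in mutants 1 to 4, against 13.53, 13.32, 13.71 and 13.40 in wild type animals 1 to 4. Mutants 2 and 4 were at the level of the lowest wild type animals and mutants 1 and 3 below them. Its log2 ratio was −0.31 (SE 0.10, n = 4 pairs, limma p 0.0195 unadjusted and 1 adjusted), with a mean of −0.58 in the pairs with the mutant in Cy5 and of −0.03 in those with the mutant in Cy3.

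Mdh2 gave 16.59, 16.53, 16.75 and 16.44 in mutants 1 to 4, against 16.55, 16.98, 16.74 and 16.95 in wild type animals 1 to 4. Here the difference lay in pairs 2 and 4, while pairs 1 and 3 held nearly equal animals, so that the split again followed the dyes, in the other direction (mean 0.03 with the mutant in Cy5 and −0.48 with the mutant in Cy3). The fitted log2 ratio, which averages both orientations, was −0.23 (SE 0.09, n = 4 pairs, limma p 0.0441 unadjusted and 1 adjusted). With no dye term, 3 of the 28 genes were left at an unadjusted p under 0.05 in limma and lower in mutants. Got2 (limma p 0.0624 unadjusted) and Mdh2 (limma p 0.123 unadjusted) were not among them. Mdh2 is the 1 gene of the 30 on chromosome 5, the chromosome of Pus1, over 20 Mb from it.

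**Figure D2:**
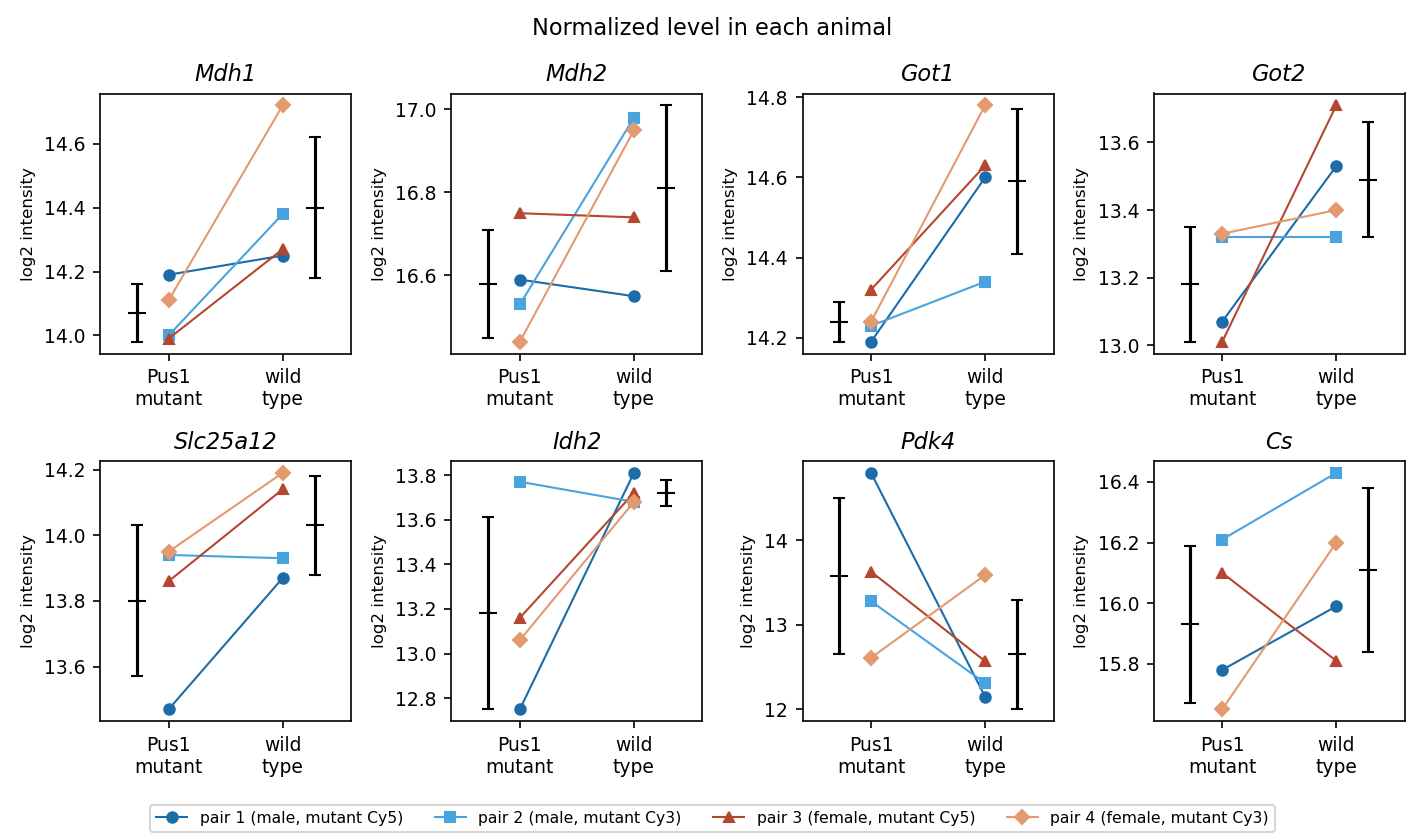
Normalized log2 intensity of 8 genes in each animal, Pus1 mutants on the left and wild type on the right of each panel (vertical axes differ and do not start at 0). Lines join animals of 1 array, and black bars are the group mean ± SD (n = 4). Mutants lie below every wild type animal for Mdh1 and Got1, while Pdk4 is higher in the mutant of 3 of the 4 pairs.

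Of the carriers, Slc25a12, the aspartate-glutamate carrier of muscle and brain, gave 13.47, 13.94, 13.86 and 13.95 in mutants 1 to 4, against 13.87, 13.93, 14.14 and 14.19 in wild type animals 1 to 4. Mutant 1 was the lowest of all animals, and pair 2 held nearly equal levels. Its log2 ratio was −0.23 (SE 0.10, n = 4 pairs, limma p 0.0576 unadjusted and 1 adjusted). Slc25a11, the malate-oxoglutarate carrier, gave −0.14 (SE 0.13), with a 95% interval of −0.45 to 0.18. It was −0.24 without pair 1, −0.26 without pair 2, −0.04 without pair 3 and −0.01 without pair 4.

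The bases before the transcription start of the shuttle enzymes are shown for those at an unadjusted p under 0.05, although Got2 and Mdh2 were lower in different pairs, with Pdk4 as the gene that lay highest. The window of Mdh1 overlaps another gene, Wdpcp, and holds none of the motifs searched, so it is not printed, and that of Mdh2 overlaps Styxl1. RefSeq windows on GRCm38.p6 were found for 28 of the 30 genes, all but Idh3a and Pdp1. These are not the 28 tested genes, since Pdk3 and Slc25a13 had a window but were not tested. They were searched on both strands, over the 250 bases before each start, for TCAAGGTCA (bound by ERR receptors), the NRF1 motif, TGACGTCA (CREB) and GTAAACA (FoxO factors). In the lines that follow, each read 5′ to 3′ on the gene's strand, capitals mark the match to TGACGTCA, which reads the same on both strands.
Mdh2, chr5:135778399-135778648, plus strand: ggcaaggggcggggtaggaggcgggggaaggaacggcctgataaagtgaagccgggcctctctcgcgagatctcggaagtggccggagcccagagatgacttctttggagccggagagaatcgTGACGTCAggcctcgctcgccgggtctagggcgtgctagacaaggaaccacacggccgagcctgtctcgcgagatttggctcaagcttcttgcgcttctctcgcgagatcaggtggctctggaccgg
Got1, chr19:43524606-43524855, minus strand: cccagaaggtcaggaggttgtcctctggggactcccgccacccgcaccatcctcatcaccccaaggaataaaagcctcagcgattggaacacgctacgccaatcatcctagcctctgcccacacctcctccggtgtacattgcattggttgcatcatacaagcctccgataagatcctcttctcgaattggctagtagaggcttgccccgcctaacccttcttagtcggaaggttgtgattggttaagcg
Got2, chr8:95888402-95888651, minus strand: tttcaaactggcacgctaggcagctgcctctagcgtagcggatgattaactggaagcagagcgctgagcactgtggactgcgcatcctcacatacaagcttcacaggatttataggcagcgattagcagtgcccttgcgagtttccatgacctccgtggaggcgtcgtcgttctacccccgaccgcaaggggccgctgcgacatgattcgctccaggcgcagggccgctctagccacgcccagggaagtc
Pdk4, chr6:5496279-5496528, minus strand: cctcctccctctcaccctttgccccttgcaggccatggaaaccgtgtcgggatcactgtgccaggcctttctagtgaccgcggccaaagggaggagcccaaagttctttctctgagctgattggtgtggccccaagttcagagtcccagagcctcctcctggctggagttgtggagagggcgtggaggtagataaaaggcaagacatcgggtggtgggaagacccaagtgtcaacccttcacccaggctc
The sequence TGACGTCA was present upstream of 2 of the 28 genes with a window, Mdh2, from −127 to −120 relative to the start, and Ogdh. Some genes had several windows. Counted by window it was present in 4 of 37, against 1.55% of all 32851 windows, and the Ogdh matches were 1 site in overlapping windows. The other motifs were in no window of these genes. Over all windows TCAAGGTCA was present in 0.387%, the NRF1 motif in 0.782% and GTAAACA in 3.17%. Median GC content was 60.8% in the windows of these genes and 52.4% in all windows.

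In the TCA cycle proper, 11 of 12 genes lay below wild type (median −0.17), against 49.6% of all tested probes. Of the 11, Idh2 and Mdh2 had an unadjusted p under 0.05 in limma, where 1.86% of all probes did with mutants lower. Cs, citrate synthase, which condenses acetyl-CoA with oxaloacetate and is often measured as a marker of mitochondrial content, gave 15.78, 16.21, 16.10 and 15.65 in mutants 1 to 4, against 15.99, 16.43, 15.81 and 16.20 in wild type animals 1 to 4. The groups overlapped throughout, and pair 3 went the other way from the rest. Its log2 ratio was −0.17 (SE 0.12), with a 95% interval of −0.48 to 0.13, so a difference of that size was not detectable with 4 arrays. It was −0.05 without pair 1, −0.26 without pair 2, −0.30 without pair 3 and −0.09 without pair 4.

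Idh2, the mitochondrial NADP-dependent isocitrate dehydrogenase, had the lowest fitted ratio of the 28 genes. It gave 12.75, 13.77, 13.16 and 13.06 in mutants 1 to 4, against 13.81, 13.68, 13.72 and 13.68 in wild type animals 1 to 4. The wild type animals were nearly equal (SD 0.06, n = 4) and the mutants spread widely (SD 0.43, n = 4), mutant 2 lying among the wild type animals and the other mutants below all of them. The fitted log2 ratio was −0.54 (SE 0.15, n = 4 pairs, 0.689-fold), lower in 3 of 4 pairs, with a limma p of 0.0135 unadjusted and 1 adjusted. Its 95% interval was −0.92 to −0.16.

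The subunits of the NAD-dependent isocitrate dehydrogenase, the regulated enzyme of the cycle, lay close to one another, at −0.19 (SE 0.10) for the catalytic Idh3a, −0.17 (SE 0.09) for Idh3b and −0.21 (SE 0.09) for Idh3g. Idh3b and Idh3g were lower in 4 of 4 pairs, as 5.1% of all probes were. Idh3b did not overlap between groups, with mutants lower, as for 0.714% of all tested probes. It lay at 14.77 to 14.92 in mutants against 14.92 to 15.09 in wild type animals, the values that meet at 14.92 differing before rounding. Unadjusted limma p values were 0.113, 0.11 and 0.0596 for Idh3a, Idh3b and Idh3g (adjusted p of 1 each). In all, 6 of the 28 genes were lower in 4 of 4 pairs and 0 were higher in 4 of 4, as 4.83% of all probes were. The 6 were Pdha1, Idh3b, Idh3g, Suclg2, Mdh1 and Got1.

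The oxoglutarate dehydrogenase complex had its first subunit Ogdh at −0.18 (SE 0.11) and its second, the succinyltransferase Dlst, at −0.04 (SE 0.10). Ogdh had 3 probes, of which the brightest gave −0.18, a further bright one −0.17, and a dim one 0.15, so the probes differed in sign. The subunits of succinyl-CoA synthetase did not lie on 1 side. The shared alpha subunit Suclg1 gave −0.07 (SE 0.12) and the GTP-forming beta subunit Suclg2 −0.12 (SE 0.09), but the ATP-forming beta subunit Sucla2 gave 0.08 (SE 0.09, 95% interval −0.14 to 0.31). Sucla2 was the 1 gene of the cycle above wild type, although it lay at −0.01 when arrays were centred on the median in place of loess. Fh1, fumarate hydratase, gave −0.13 (SE 0.10). Idh1, the cytosolic NADP-dependent isocitrate dehydrogenase, gave 0.05 (SE 0.10), with a 95% interval of −0.20 to 0.29.

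At pyruvate entry, 6 of 6 genes lay below wild type by small amounts (median −0.15), against 49.6% of all tested probes. Of the 6, 0 had an unadjusted p under 0.05 in limma, where 1.86% of all probes did with mutants lower. Pdha1, the catalytic alpha subunit of pyruvate dehydrogenase, gave 12.40, 12.65, 12.71 and 12.47 in mutants 1 to 4, against 12.78, 12.77, 12.86 and 12.72 in wild type animals 1 to 4. Wild type animals were close together (SD 0.06, n = 4), and every mutant lay just below all of them. The fitted log2 ratio was −0.22 (SE 0.10, n = 4 pairs, limma p 0.0615 unadjusted and 1 adjusted). Pdhb, the beta subunit, gave −0.13 (SE 0.09, −0.17 by a further probe), the acetyltransferase Dlat −0.19 (SE 0.14), the anchoring protein Pdhx −0.08 (SE 0.12) and Dld, the dihydrolipoyl dehydrogenase that the complex shares with oxoglutarate dehydrogenase, −0.13 (SE 0.10, also −0.13 by a further probe). Dlat, Pdhx and Dld had their lowest ratio in pair 3, at −0.66, −0.36 and −0.44, and Dlat was −0.02 without that pair and −0.36 without pair 1. Pcx, pyruvate carboxylase, which makes oxaloacetate from pyruvate, gave −0.16 (SE 0.15). The groups that did not overlap among the 28 genes were thus those of Pdha1, Idh3b, Mdh1 and Got1, each with mutants lower. Over all tested probes, groups did not overlap with mutants lower for 0.714%, and in either direction for 1.27%.

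Among the regulators of pyruvate dehydrogenase, Pdk4 stood apart. This kinase, which fasting and fatty acids induce in muscle, gave 14.80, 13.28, 13.63 and 12.61 in mutants 1 to 4, against 12.15, 12.31, 12.57 and 13.59 in wild type animals 1 to 4. Mutants 1 to 3 lay above their partners and mutant 4 below its own, so the groups overlapped. Pair ratios were 2.65, 0.97, 1.06 and −0.98, and the fitted log2 ratio was 0.93 (SE 0.38, n = 4 pairs, 95% interval 0.00 to 1.85, limma p 0.0497 unadjusted and 1 adjusted). The mean was 1.86 in the pairs with the mutant in Cy5 and −0.01 in those with the mutant in Cy3. The ratio was 0.53 without pair 1, 0.44 without pair 2, 1.32 without pair 3 and 1.41 without pair 4. The unadjusted limma p of Pdk4 crossed 0.05 with the processing. It was 0.0915 with no dye term, 0.0993 with processed signals, 0.114 with the authors' deposited table and 0.0578 with a normexp offset of 16. With median centring it was 0.00475, and with no filter on dim probes 0.0164. Pdk1 gave 0.01 (SE 0.10), Pdk2, the most widespread kinase of the family, −0.08 (SE 0.12), and the phosphatase Pdp1 −0.03 (SE 0.09), with −0.12 and −0.11 by further probes. Pdk1 changed sign under 3 other normalizations or sources of the values (−0.06 with median centring, −0.06 with processed signals, −0.01 with the authors' deposited table).

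Markers of fibre type differed between the animals of a pair. The fitted mean was below wild type for 13 of 13 slow fibre markers (median −0.98), with 0 past the adjusted threshold in limma, and their mean log2 level ranged from 9.04 to 10.84 in mutants and from 9.43 to 12 in wild type animals. Their medians were −1.97, 1.24, −1.11 and −1.99 in pairs 1 to 4, so pair 2 was the 1 pair with a higher list median in the mutant. Not every marker followed the list. Csrp3 gave −2.39, 1.4, 0.61 and 0.34 in pairs 1 to 4 (fitted −0.01). Myl6b (−0.02), Tpm3 (−0.04) and Casq2 (−0.12) also had fitted ratios near 0. Mb, myoglobin, the oxygen store of oxidative fibres, was lower in 4 of 4 pairs, at −1.97, −0.49, −0.79 and −0.66 in pairs 1 to 4 (fitted −0.98, SE 0.20, limma p 0.00253 unadjusted and 0.99 adjusted). In pair 2, 14 of the 28 genes lay below wild type, against 53.1% of all probes, and only some are given here. Idh2 gave 0.09, Ogdh 0.23, Slc25a11 0.17, Slc25a12 0.01 and Got2 0.00, none below 0. In the same pair Mdh2 gave −0.45, Mdh1 −0.38, Idh3b −0.26, Idh3a −0.25, Idh3g −0.21 and Got1 −0.11, all below 0. Among wild type animals, number 2 had the lowest mean slow fibre level (9.43) and number 4 the highest (12). Idh2 was at 13.68 in both. In wild type animals 2 and 4, Mdh1 was at 14.38 and 14.72 and Got1 at 14.34 and 14.78. Mdh2 was at 16.98 and 16.95 there, and Cs at 16.43 and 16.20, so the genes differed in direction. A relation to fibre content was not tested. Of 12 fast fibre markers 2 had a fitted mean below wild type, and the median of the fitted ratios was 0.07. Fast fibre markers had medians of −0.04, −0.22, 0.61 and −0.03 in pairs 1 to 4, with levels of 16.75 to 17.13 in mutants and 16.62 to 17.04 in wild type animals. Of these 12 markers 5 were saturated in 2 to 4 animals, namely Myh4, Tnnt3, Tnni2, Tnnc2 and Pvalb, which limits what these medians can show. Myh1, the myosin heavy chain of the more oxidative fast fibres among those listed, was lower in 4 of 4 pairs, at −2.47, −0.26, −1.18 and −1.25 in pairs 1 to 4 (fitted −1.29, SE 0.25, limma p 0.00226 unadjusted and 0.99 adjusted). Mb, Myh1 and the other single markers given with ratios here were singled out after their values were seen.

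Markers of other cells also differed between the animals of a pair. Of 6 tested erythroid markers 0 had a fitted mean below wild type (medians 0.78, −0.84, 0.97 and 1.48 in pairs 1 to 4), and their mean level was 10.82 to 13.39 in mutants and 10.35 to 11.93 in wild type animals. Of 8 fibroblast markers 0 lay below wild type (medians 1.18, −0.44, 0.15 and 0.57), at 10.46 to 11.50 in mutants and 10.32 to 11.04 in wild type animals, and of 6 tested adipocyte markers 0 did (medians 1.65, −1.14, 0.56 and 0.10), at 9.32 to 10.48 in mutants and 8.98 to 10.19 in wild type animals. The median of each of these 3 lists went opposite to that of the slow fibre list in each pair, but not every marker did. Col1a1, Col1a2, Col3a1 and Fabp4 were higher in the mutant of 4 of 4 pairs, pair 2 included, as 4.83% of all tested probes were. They were singled out after their values were seen. In pair 3, 3 of the 8 fibroblast markers lay below wild type, and in pair 4, 2 of the 6 adipocyte markers did. The part of these 3 lists and of the slow fibres in the ratios of the TCA and shuttle genes was not tested. Endothelial, macrophage and Schwann cell markers had fitted medians of −0.01, 0.18 and 0.10.

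**Figure D3:**
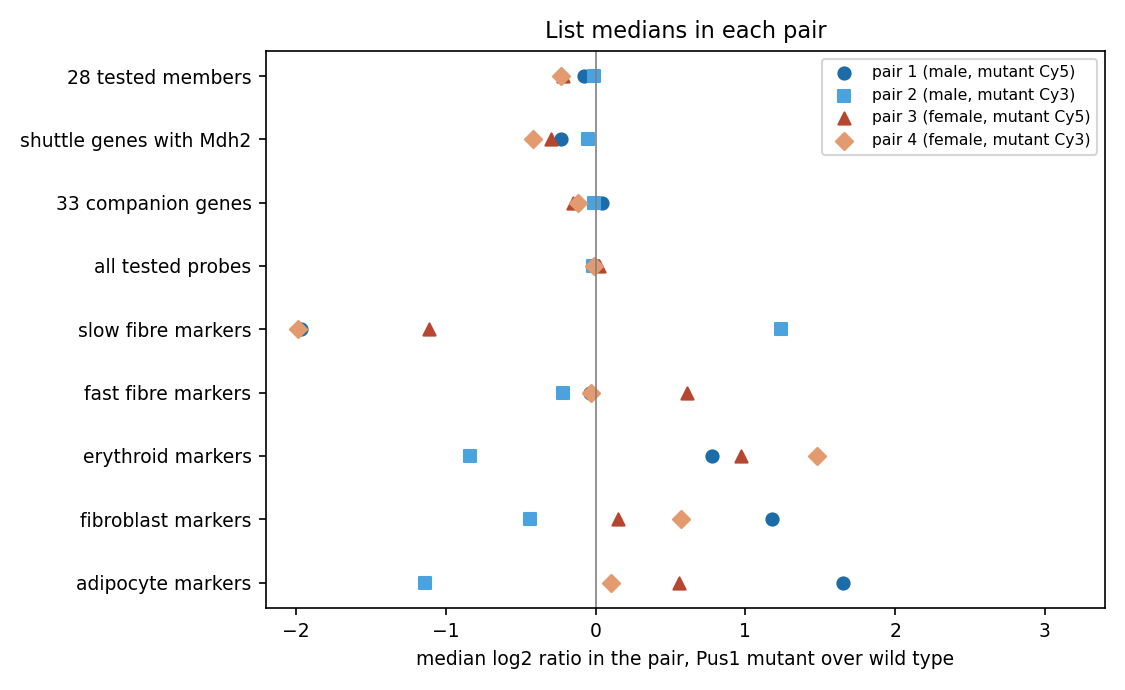
Median log2 ratio of Pus1 mutant over wild type in each of the 4 pairs, for the 28 tested genes, the 6 shuttle genes with Mdh2, the 33 tested companion genes, all tested probes and 5 marker lists. The slow fibre median lies at −1.97, −1.11 and −1.99 in pairs 1, 3 and 4 and at 1.24 in pair 2, while the medians of the 28 genes lie between −0.23 and −0.01.

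Further genes of the same pathways were examined beside the 28, namely aconitases, succinate dehydrogenase, pyruvate carriers, malic enzymes, the glycerol phosphate shuttle, lipoic acid synthesis and others. Of 40 such genes 33 were tested, and 25 had a fitted mean below wild type, against 49.6% of all tested probes, with a median of −0.04. At an unadjusted p under 0.05 in limma 1 was lower and 1 was higher in mutants, where 1.86% and 1.49% of all probes were. Of the 33, 0 passed the adjusted threshold. The 1 lower gene was Ldhb, which encodes the lactate dehydrogenase subunit typical of heart, at 8.59, 11.87, 9.76 and 10.20 in mutants 1 to 4, against 11.79, 11.79, 11.69 and 11.53 in wild type animals 1 to 4. As with Idh2, the wild type animals were nearly equal, mutant 2 lay at their level and the other 3 mutants below them, with a fitted log2 ratio of −1.60 (SE 0.29, n = 4 pairs, limma p 0.00156 unadjusted and 0.99 adjusted). Acly, ATP citrate lyase, which draws on citrate for lipid synthesis, gave 0.30 (SE 0.12). The alanine aminotransferase Gpt gave −0.36 (SE 0.15), and Sdhb, the iron-sulphur subunit of succinate dehydrogenase, −0.25 (SE 0.12, −0.14 by a further probe).

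The genotype effect was compared between the sexes with an interaction term. Of 23098 probes, 0 (0%) reached an adjusted p of 0.05 in limma, and 506 probes (2.19%) had an unadjusted p under 0.05. Among the 28 genes 2 did. Pdk4 differed by −1.77 (female minus male log2 ratio, SE 0.23, limma p 0.000325 unadjusted and 0.656 adjusted), with a mean ratio of 0.04 in the female pairs and 1.81 in the male pairs. The female pairs of Pdk4 held 1.06 and −0.98, so their mean stands for neither animal. The male pairs held 2.65 and 0.97. In both sexes the ratio was higher with the mutant in Cy5, and the dye term took up that difference. The SE and p of this interaction, fitted with the dye term to 4 ratios, therefore do not measure the spread between animals. Pcx differed by −0.61 (SE 0.23, limma p 0.0372 unadjusted and 1 adjusted), with −0.46 in the female pairs and 0.14 in the male pairs.

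Levels themselves also differed between the sexes, a comparison chosen after the values were seen and one in which the sexes lay on different arrays, so that sex and array cannot be told apart. With separate channels in limma, 319 probes (1.38%) passed an adjusted p of 0.05 and 5330 (23.1%) had an unadjusted p under 0.05, and 4 of the 28 genes had an unadjusted p under 0.05. The largest difference was that of Pcx, at 13.02 and 13.36 in female mutants 3 and 4, 13.42 and 13.89 in female wild type animals 3 and 4, 12.57 and 12.34 in male mutants 1 and 2, and 12.26 and 12.36 in male wild type animals 1 and 2. All females lay above all males, by 1.04 on the log2 scale (SE 0.19, n = 4 females and 4 males, limma p 0.000727 unadjusted and 0.0511 adjusted), which just missed the threshold. Pdp1 and Sucla2 did not overlap either, at −0.40 (SE 0.10, limma adjusted p 0.0853) and −0.36 (SE 0.11, limma adjusted p 0.113) for female minus male, and Idh1 gave −0.36 (SE 0.13, limma adjusted p 0.154) with overlap.

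**Figure D4:**
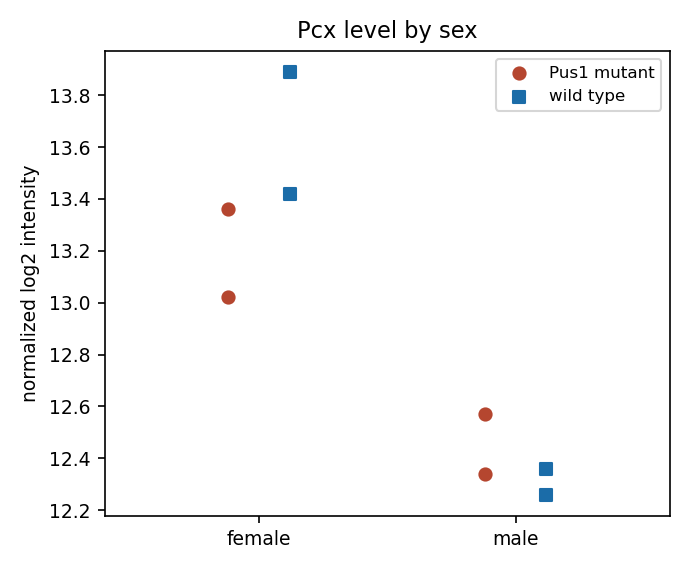
Normalized log2 intensity of Pcx in the 4 female and 4 male animals, with mutants as circles left of wild type squares in each sex (vertical axis does not start at 0). The females lie between 13.02 and 13.89 and the males between 12.26 and 12.57.

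**Figure D5:**
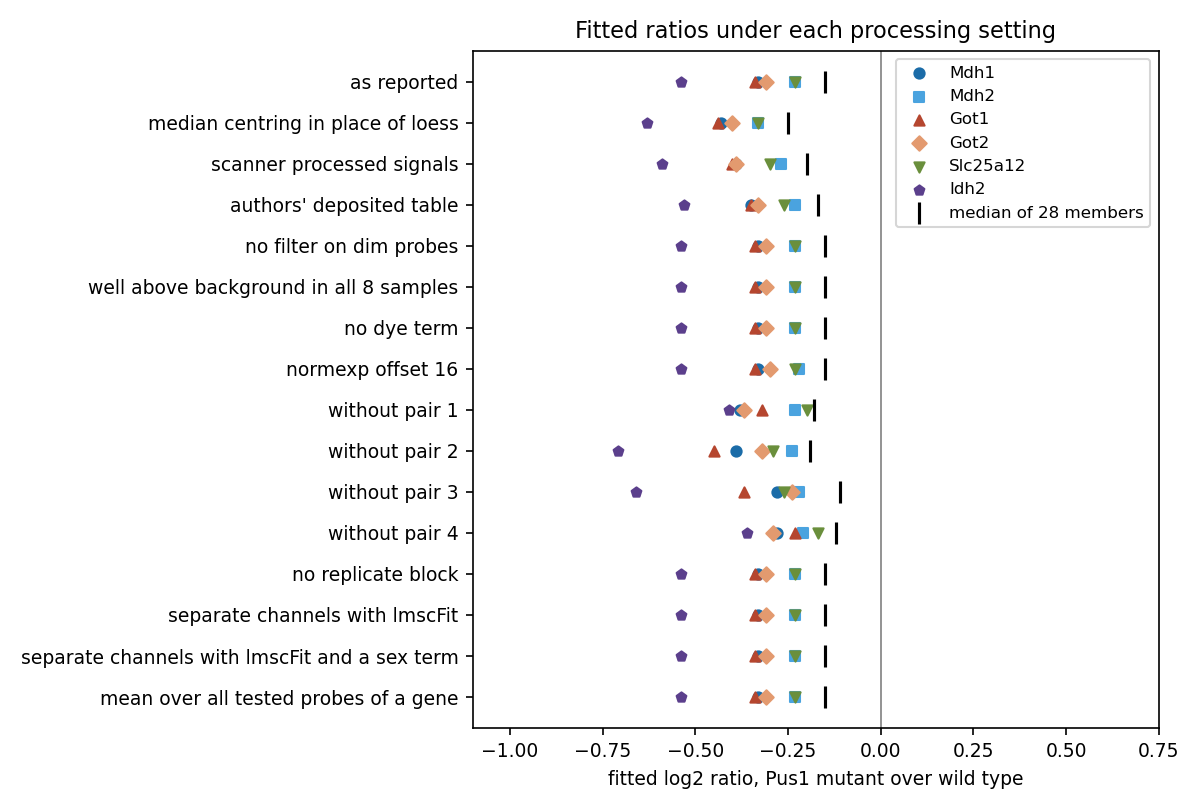
Fitted log2 ratio of Pus1 mutant over wild type for 6 genes and the median of the 28 tested genes (black ticks), under the processing as reported and under each alternative. All 6 genes and the median lie left of 0 in every row, and Idh2 ranges from −0.71 to −0.36.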

How the data were processed

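Total RNA of 8 animals was labelled with Cy3 or Cy5 from 200 ng each, per the labels' protocols, and animals of the same number shared an array. The authors deposited scanner files with intensity values (median spot, local background and processed signals), per the file headers from Agilent Feature Extraction 10.7.3.1. Among other deposited values are flags for saturation, outliers and signal well above background, per the file headers. A table deposited by the authors holds log2 values: the median over the 8 samples was within 0.01 of 0 for 100.0% of its 55821 probes, column medians were −0.02 to 0.03, and its pair differences followed those of the processed signals with slopes of 0.971 to 1.03. No source used here gives its normalization.

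Median signals were background-corrected with normexp (offset 50) and log ratios normalized by loess within each array. Control spots (3671 of 62976) and outlier spots had weight 0 and were then left out, saturated spots were kept, and spots of 1 probe were averaged. Unversioned RefSeq accessions named the probes (27656 probes with 1 symbol, 28025 unnamed). Of 55681 probes, 55591 had a value on all arrays, and the 23098 well above background in at least 4 of 8 animals were tested. Log2 ratios of mutant over wild type were fitted in limma 3.58.1 (R 4.3.3) with lmFit, eBayes and a dye term, and p-values were adjusted by Benjamini-Hochberg over all tested probes. SE is the moderated standard error. Levels per animal are separate-channel values after Aquantile normalization, and levels of different probes are not comparable. The brightest tested probe stood for a gene. The interaction with sex was a further term, and levels between sexes were fitted with lmscFit (intraspot correlation 0.191). The fit was tested on simulated data.

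All 30 members are named, with values in every animal for those at an unadjusted p under 0.05, those with the 6 largest ratios and a fixed set of enzymes, and so are the 4 companion genes with the smallest p. The members and lists were chosen with earlier results of these data known. The pairing is physical, since paired animals shared an array, and deviations from the group means correlated within pairs 1 to 4 at 0.66, 0.279, 0.06 and 0.636 across probes. The labels name individual animals. The number of arrays limits the precision. The alternatives tried were other normalizations, signals, filters and offsets, no dye term, fits without the array block, and each pair left out.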

Additional observations from a re-analysis of the deposited data

Results flagged for a closer look

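Among the 56 sets of 4 animals examined (28 genes in mutants and in wild type), 2 held an animal far from the other 3, and chance alone puts about 1 in 20 such sets past the limit used. Pdhb, the beta subunit of pyruvate dehydrogenase, was at 14.40 in mutant 1, against 14.17 to 14.20 in the other mutants. Pdk1, a pyruvate dehydrogenase kinase, was at 8.56 in wild type animal 3, against 8.35 to 8.38 in the other wild type animals.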

How the results depend on the processing

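Under all alternatives run, 0 of the 28 genes passed an adjusted p of 0.05 in limma, and 21 to 26 of them lay below wild type, with a median between −0.25 and −0.11. Over all probes the count of calls, 0 as reported, was 23 with median centring (2 higher and 21 lower), 5 with no filter on dim probes, 2 with no dye term, 3 with no replicate block, 13 with separate channels in lmscFit, 4 with separate channels and a sex term (added after the data were seen) and 0 to 245 with 1 pair left out, 245 being without pair 3 (39 higher and 206 lower). The count of genes lower at an unadjusted p under 0.05, 5 as reported, was 8 with no filter, 3 with no dye term, 9 with separate channels, 7 with separate channels and a sex term, and 0 to 7 with 1 pair left out. The block, which is the shared array, changed no other call. Calls in the sex interaction, 0 as reported, were 22 with median centring and 38 with no filter. Of the 28 genes, 19 kept their sign throughout. Pdk1 gave −0.06 with median centring, −0.06 with processed signals and −0.01 with the authors' deposited table, Sucla2 −0.01 with median centring and Idh1 −0.01 with processed signals. With 1 pair left out, values ranged from −0.04 to 0.06 for Pdk1, −0.02 to 0.11 for Idh1, −0.20 to 0.03 for Pdk2, −0.08 to 0.02 for Pdp1, −0.19 to 0.04 for Suclg1, −0.20 to 0.04 for Pdhx, −0.34 to 0.02 for Pcx and −0.10 to 0.03 for Dlst. The cause was not tested. All 28 genes were well above background in each animal, so dim signal limits only Pdk3 and Slc25a13.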
